A study of Rattus norvegicus with 8 samples.

Results

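Transcripts of the zinc-dependent histone deacetylases, the family that holds the enzymes butyrate inhibits, were compared in rat liver with and without a butyrate-containing lipid supplement. All 10 genes named Hdac1 to Hdac10 were taken, through every non-control spot whose gene name was one of these or whose description gave one in brackets. They were measured by 17 of the 45598 probes of the array, and they are 10 of the 35409 genes or unmatched names on it. Of these genes, 9 were well above background in enough livers to be tested, among 21446 genes tested in all; Hdac2 was not. The rule picks genes by name only and uses no expression value. Earlier results of these data were, however, known when the set was chosen.

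Histone deacetylases remove acetyl groups from lysines of histones and other proteins, and in nuclear complexes they commonly act as corepressors of transcription. Class I enzymes (Hdac1, Hdac2, Hdac3, Hdac8) and the class IIb enzymes Hdac6 and Hdac10 have an active catalytic zinc site, whereas the vertebrate class IIa enzymes (Hdac4, Hdac5, Hdac7, Hdac9) have little catalytic activity of their own and shuttle between nucleus and cytoplasm. Butyrate is a short-chain fatty acid that inhibits class I enzymes at the protein level, so a transcript level does not report on that inhibition.

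The livers came from male Wistar rats, 4 in each group, with 1 array per animal by the labels. Control rats received maltodextrin at 3.0 g per kg of body weight, and treated rats received the structured lipids (STL) at an isocaloric dose of 1.65 g per kg by daily gavage. Both groups entered the resistant hepatocyte protocol, a chemical and regenerative model of liver cancer, 2 weeks after treatment began, and livers were taken at 8 weeks. Livers without hepatocarcinogenesis were not analysed here, and neither was the lipid vehicle without butyrate, so the comparison is between supplements within the cancer model. RNA was from whole liver: fewer cells of a type and less RNA per cell cannot be told apart.

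The share of probes above background ran from 54.19% to 62.87% over the arrays, and the 75th percentile of the processed signal ran from 304.1 in STL 7 to 604.9 in control 4. All arrays were on 1 slide and scanned at 1 time. Control 1 and control 2 differed by no more than repeated spots within an array (ratio of the spreads 0.997, against 2.37 to 7.15 for the other 27 pairs), so they were averaged and counted as 1 sample, which leaves 3 control samples against 4 STL samples. Levels below are log2 processed signal relative to the 75th percentile of the same array, and differences are STL minus control on that log2 scale, with limma's standard error (SE) or 95% interval. All 10 hepatocyte markers were well above background on all 8 arrays.

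The sequences of a few probes are shown because they decide which transcript a value belongs to. The first pair are the probes of Hdac1 and of Hdac1l, a near-identical copy annotated at the same place in the rn4 genome; the capitals mark the 33 bases that both probes cover.

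Hdac1: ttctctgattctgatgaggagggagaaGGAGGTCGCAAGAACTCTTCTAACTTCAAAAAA

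Hdac1l: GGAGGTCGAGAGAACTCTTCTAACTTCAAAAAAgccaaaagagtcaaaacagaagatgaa

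Within those 33 bases the probes differ by C9A and A10G, counted from 1 at the 5′ end of the overlap, with the base of the Hdac1 probe first. The Hdac1 probe lies at chr5:148673850-148673909 and the Hdac1l probe at chr5:148673823-148673882, both on the minus strand. The following probes end in, or run across, the coding sequence of class I and class IIa members, and all lie on the minus strand of rn4.

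Hdac3: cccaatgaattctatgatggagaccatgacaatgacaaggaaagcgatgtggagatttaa

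Hdac8: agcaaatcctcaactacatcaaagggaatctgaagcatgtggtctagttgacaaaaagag

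Hdac4: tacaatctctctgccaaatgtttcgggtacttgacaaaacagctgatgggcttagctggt

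Hdac5: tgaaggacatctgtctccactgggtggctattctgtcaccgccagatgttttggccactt

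The Hdac3 probe occupies an unbroken window at chr18:30857721-30857780. The other 3 span introns: chrX:90336493-90358304 (21812 bases) for Hdac8, chr9:91162605-91164068 (1464 bases) for Hdac4 and chr10:91267403-91267871 (469 bases) for Hdac5. Those 3 therefore match spliced RNA rather than 1 unbroken stretch of the genome. The brightest Hdac8 probe is of another kind. It was designed on a predicted transcript variant and lies at chrX:90531730-90531789; the capitals mark a TG repeat of 20 bases in its last 30 bases.

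Hdac8 variant X3: taataagattTGTGTGTGTGTGTGTGTGTG

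A TG or CA run of that length occurs in 49 of the 45598 probes (0.107%). Which other transcripts this probe can bind was not tested.

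None of the 9 tested members differed between the groups at an adjusted p under 0.05 (limma, Benjamini-Hochberg over all genes). Only 1 of 21446 genes did so (0.00466%), so the members' count is the same as nearly every gene's. At an unadjusted p under 0.05, Hdac1 was higher and Hdac7 lower in STL livers. That makes 2 of 9 members where 19.0% of all genes met that threshold (11.6% higher and 7.38% lower). Hdac1 kept that level under 13 and Hdac7 under 9 of 22 processing alternatives. Some of these count control 1 and 2 as separate samples. The alternatives of probe filter and probe choice reuse the single probe of each gene, so they could not change its difference. Of the 9 differences, 5 were above 0, against 58.2% of all genes. The median difference of the members was 0.06 and that of all genes 0.07, with quartiles of -0.15 and 0.29 over all genes; the median absolute differences were 0.21 and 0.23. All 9 tested members differed by less than 0.5, as did 81.7% of all genes. By the probe that stands for each gene, the members' 95% intervals reached from -0.68 to 0.74. Each lay inside a 2-fold change in either direction, as did the intervals of 75.6% of all genes. A dimmer Hdac8 probe had an interval of -0.62 to 1.14.

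**Figure D1:**
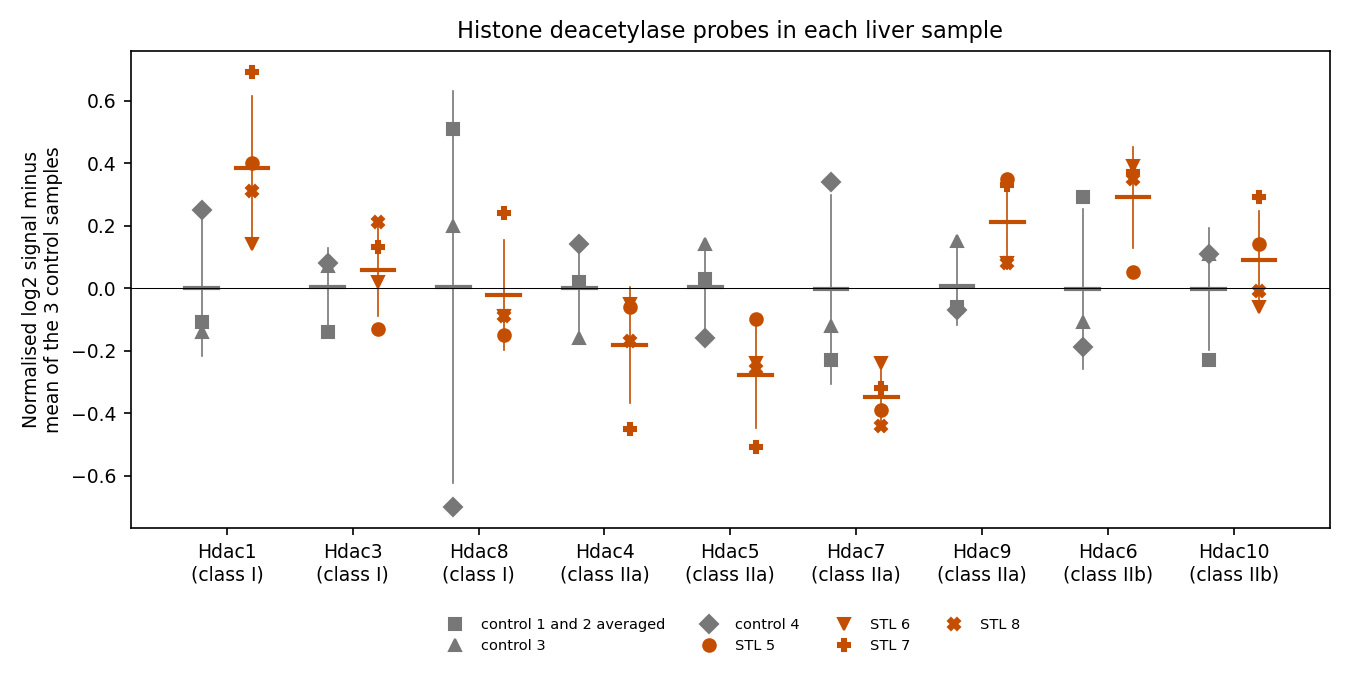
Level of each tested histone deacetylase (brightest probe) in every liver sample, as log2 processed signal relative to the array's 75th percentile minus the mean of the 3 control samples; grey is control and orange STL, thick bars are group means and thin lines 1 SD either way. The groups overlap for each member shown but Hdac7, whose 4 STL samples (levels 1.28 to 1.48 before the control mean is taken off) lie below the 3 control samples (1.49 to 2.06).

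Among class I enzymes, Hdac1 is a catalytic subunit of the SIN3, NuRD and CoREST complexes. Its level was 2.25, 2.22 and 2.61 in the control samples (1 and 2 averaged, 3, 4) and 2.76, 2.50, 3.05 and 2.67 in STL samples 5 to 8. STL 7 was highest, and 3 of the 4 STL samples lay above every control, with STL 6 below control 4. The means were 2.36 ± 0.21 (SD, n = 3) and 2.75 ± 0.23 (SD, n = 4). The difference was 0.39 (SE 0.16, interval 0.03 to 0.74), or 1.31-fold, with an unadjusted p of 0.0364 and an adjusted p of 0.241 by limma. STL 7 was also the array with the lowest signal and the fewest probes above background; without it the difference was 0.28, and the part of signal strength in this value was not tested.

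The overlapping Hdac1l probe gave almost the same pattern. Its levels were -0.00, 0.02 and 0.47 in control samples and 0.51, 0.39, 0.89 and 0.52 in STL samples. The difference was 0.42 (interval 0.03 to 0.80; limma adjusted p = 0.239). A further Hdac1l probe, at a different window of that transcript, had a difference of 0.10 (interval -0.17 to 0.36; adjusted p = 0.664 among 26979 probes tested singly). Both Hdac1l probes also list the Hdac1 accession, so signal from the pair of genes cannot be told apart.

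Hdac1 had the smallest p of the members, and the genes whose levels followed it most closely over the 7 samples were Hdac1l (Pearson r 0.986), Septin9 (0.983), Rundc3a (0.977), Ugt1a6 (0.976) and Sf3b5 (0.974). They are the highest correlations among those of the 21446 tested genes that have a RefSeq symbol. They rest on only 7 points and are a description. Among the 36 pairs of tested members, r ran from -0.89 to 0.70 with a median of -0.25; the lowest was that of Hdac1 with Hdac5.

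Hdac2, the usual partner of Hdac1 in the same complexes, has 1 probe on the array, at chr20:41186433-41186492. It was not well above background on any of the 8 arrays. Its relative levels lay between -7.19 and -5.04, and no fold is given. This bounds the signal of that probe alone.

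Hdac3 is the enzyme of the NCoR complex and in liver serves the clock repressors of the REV-ERB family. Its level was 0.34, 0.55 and 0.56 in control samples and 0.35, 0.50, 0.61 and 0.69 in STL samples. Both groups began near the same low value and overlapped over nearly their whole range. The difference was 0.06 (SE 0.13, interval -0.23 to 0.34; limma adjusted p = 0.822).

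Hdac8, which deacetylates the cohesin subunit Smc3, has 4 probes. The brightest, the TG-repeat probe printed above, read 2.86, 2.55 and 1.65 in control samples and 2.20, 2.26, 2.59 and 2.26 in STL samples. The control samples spanned the STL samples on both sides, and the difference was -0.02 (SE 0.26, interval -0.62 to 0.57; limma adjusted p = 0.967). Its size depended on control 4, without which it was -0.38 at an unadjusted p of 0.0389 by limma. The exon-spanning probe read -0.98, -0.84 and -1.19 in control samples and -0.49, -0.82, -1.21 and -0.88 in STL samples. Those groups overlapped, with STL 5 highest and STL 7 lowest, and the difference was 0.15 (interval -0.26 to 0.57; adjusted p = 0.668 among single probes). Probes for other predicted variants had differences of 0.41 (interval -0.08 to 0.91) and 0.26 (interval -0.62 to 1.14), the latter well above background on 4 control and 3 STL arrays. The Hdac8 probes thus gave 1 value just below 0 and 3 above 0, all with intervals that include 0.

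The class IIa enzymes bind MEF2 factors and leave the nucleus when phosphorylated, held by 14-3-3 proteins. Of the 4, Hdac4, Hdac5 and Hdac7 were lower on average in STL livers and Hdac9 higher, and none passed the adjusted threshold. Hdac7 was the member whose groups did not overlap, 1 of 9 members where 17.0% of all genes had groups apart (11.3% with STL above and 5.65% with STL below). The single Hdac7 probe was designed on a predicted transcript. Its level was 1.49, 1.60 and 2.06 in control samples and 1.33, 1.48, 1.40 and 1.28 in STL samples. Control 4 stood well above the rest, while the averaged control 1 and 2 and STL 6 were nearly level. The means were 1.72 ± 0.30 (SD, n = 3) and 1.37 ± 0.09 (SD, n = 4), a difference of -0.34 (SE 0.15) or 1.27-fold lower; the 95% interval of the ratio of STL to control was 0.624 to 0.998. The unadjusted p was 0.0481 and the adjusted p was 0.26 by limma. Without control 4 the difference was -0.17 (limma adjusted p = 0.536). Control 4 also had the highest mean centred level of the stellate cell markers (0.57) and of the cholangiocyte markers (1.42); their part in the Hdac7 value was not tested.

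Hdac5, an exon-spanning probe, read 1.43, 1.54 and 1.24 in control samples and 1.30, 1.16, 0.89 and 1.14 in STL samples. Only STL 5 came within the control range. The means were 1.40 ± 0.15 (SD, n = 3) and 1.12 ± 0.17 (SD, n = 4), and the difference was -0.28 (SE 0.13, interval -0.58 to 0.02), or 1.21-fold lower, with a limma adjusted p of 0.288.

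Hdac4 was measured by a bright probe for a predicted variant, at chr9:91143426-91143485, and by the dimmer exon-spanning probe printed above. The bright probe read 0.05, -0.13 and 0.17 in control samples and -0.03, -0.02, -0.42 and -0.14 in STL samples, and the groups overlapped. The exon-spanning probe read -2.53, -3.16 and -3.07 against -3.19, -2.62, -3.67 and -3.44. STL 7 was the lowest sample by both probes, and the differences were -0.19 (SE 0.14, interval -0.51 to 0.14; limma adjusted p = 0.479) and -0.31 (SE 0.29, interval -0.96 to 0.34; adjusted p = 0.571 among single probes). For the bright probe, the difference was -0.10 without STL 7, -0.12 without control 4 and -0.07 with array weights.

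Hdac9 has 4 probes, of which 2 were well above background in enough livers to be tested. The brighter was designed on a predicted variant and has no position given on rn4. It read -1.75, -1.54 and -1.76 in control samples and -1.34, -1.61, -1.36 and -1.61 in STL samples. STL 5 and STL 7 were highest while STL 6 and STL 8 lay among the controls, and the difference was 0.21 (SE 0.15, interval -0.12 to 0.54; limma adjusted p = 0.443). With array weights that difference was 0.07. The other tested probe gave 0.11 with a wide interval of -0.67 to 0.88. Of the remaining Hdac9 probes, 1 was at background on each of the 8 arrays and 1 was well above it on 1 control and 1 STL array only. The latter is the only Hdac9 probe designed on a transcript that is not a predicted one.

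The class IIb enzyme Hdac6 is the cytoplasmic deacetylase of tubulin and Hsp90. Its level was 0.58, 0.18 and 0.10 in control samples and 0.34, 0.68, 0.66 and 0.64 in STL samples. The STL samples lay close together except STL 5, which lay below the averaged control 1 and 2, so the groups overlapped. The means were 0.29 ± 0.26 (SD, n = 3) and 0.58 ± 0.16 (SD, n = 4), with a difference of 0.29 (SE 0.15, interval -0.05 to 0.64), 1.23-fold, and a limma adjusted p of 0.318. Over the 22 alternatives the Hdac6 difference ran from 0.2 (without control 4) to 0.44 (without controls 1 and 2). The probe spans an intron at chrX:26605809-26605986.

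Hdac10, the class IIb enzyme that removes acetyl groups from polyamines, read -0.37, -0.03 and -0.03 in control samples and -0.00, -0.20, 0.15 and -0.15 in STL samples. The lowest value was that of the averaged control 1 and 2, and all other samples overlapped. The difference was 0.09 (SE 0.14, interval -0.23 to 0.42; limma adjusted p = 0.74). Hdac11, the single class IV enzyme and no member of this set, read 1.89, 2.34 and 2.52 against 2.23, 2.87, 2.66 and 2.63, a difference of 0.35 (interval -0.08 to 0.79; limma adjusted p = 0.338).

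**Figure D2:**
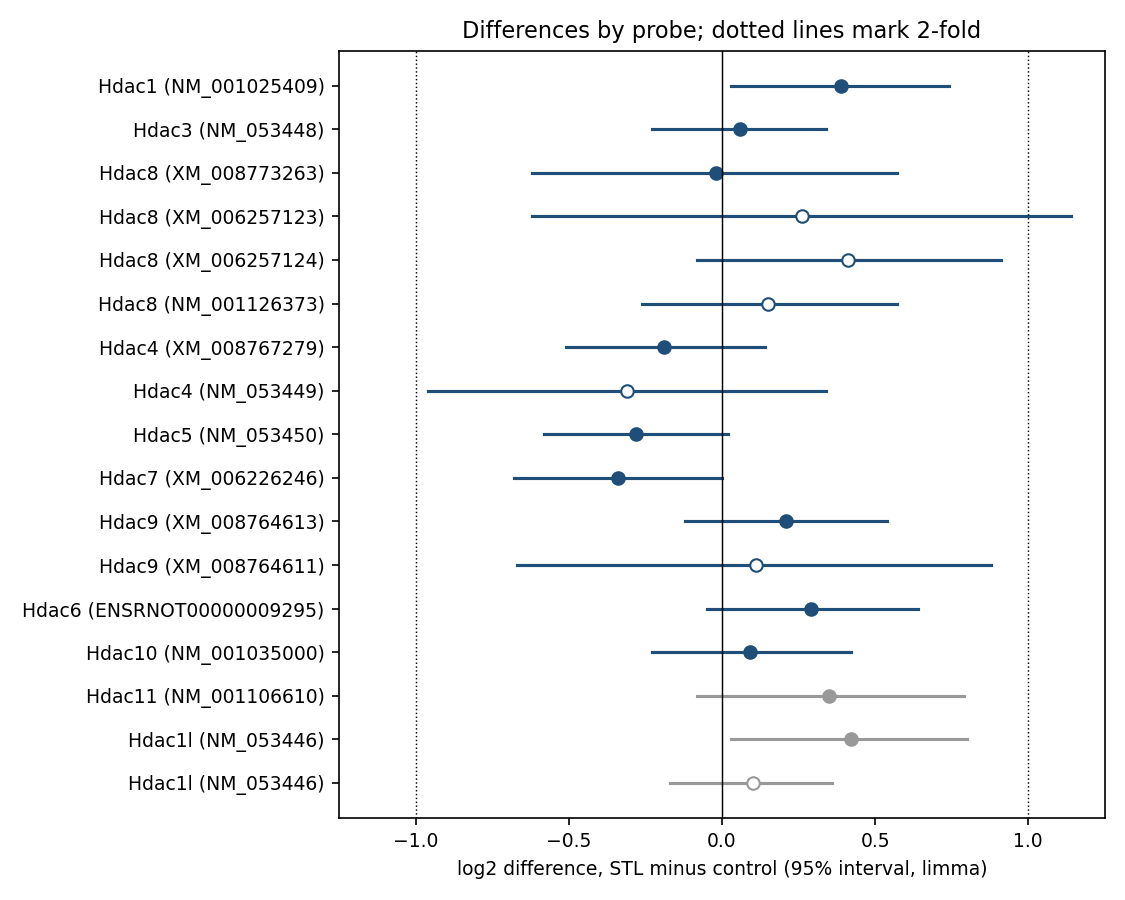
Difference between STL and control livers for each tested probe of the histone deacetylases, as log2 difference with its 95% interval, grouped by class, with Hdac11 and the Hdac1l copy in grey; filled points are the probes that stand for a gene, open points its other probes, and dotted lines mark a 2-fold change. Intervals of the Hdac1 probe (0.03 to 0.74), the overlapping Hdac1l probe (0.03 to 0.80) and the Hdac7 probe lie to 1 side of 0, and the remaining intervals cross it.

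The genes around the deacetylases were grouped by the member they work with. None of the genes in these lists passed the adjusted threshold, so the values below are sizes with intervals and not calls. Of the 34 corepressor subunits of the SIN3, NuRD, CoREST and NCoR complexes, 16 were higher and 18 lower in STL livers, with a median difference of -0.04 beside 0.07 over all genes. Sin3b, a SIN3 scaffold, had a difference of 0.32 (limma adjusted p = 0.195). Kdm1a, the histone demethylase of CoREST, had a difference of -0.33 (limma adjusted p = 0.199). Ncor1, a scaffold that brings in Hdac3, had a difference of 0.10 (limma adjusted p = 0.652). Its other probes that were well above background on every array gave -0.13, -0.11, 0.01 and 0.06.

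The opposing enzymes, the histone acetyltransferases, split evenly, with 7 of 14 higher and a median of 0.03. Crebbp, the CBP acetyltransferase, had a difference of 0.47 (limma adjusted p = 0.195), and Ncoa1 one of 0.32 (adjusted p = 0.201). The 4 BET readers of acetyl-lysine were all above 0, between 0.22 and 0.32 with a median of 0.28. Brdt, of this family, had a difference of 0.27 (limma adjusted p = 0.329). Among 8 other deacetylases, the NAD-dependent sirtuins and Hdac11, 6 were above 0 with a median of 0.15, and the values of Sirt6 and Sirt2 were -0.25 and 0.25 (0.10 for Sirt2 after quantile normalization).

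Of 22 class IIa partners and kinases, 20 were tested, and 14 of them were above 0 with a median of 0.12. Ywhaz, a 14-3-3 protein, had levels of 2.0, 2.02 and 1.92 in control samples and 1.64, 1.71, 1.52 and 1.71 in STL samples. The STL samples lay below every control, with a difference of -0.33 (limma adjusted p = 0.178), whereas its other probe gave -0.09. Foxo1, a factor that class IIa enzymes and Hdac3 help to deacetylate in liver, had a difference of 0.48 (limma adjusted p = 0.207).

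Among these lists the widest differences stood in the list of liver recruiters and targets of Hdac3, where 6 of 13 genes were above 0 with a median of -0.17. That list was drawn up with earlier results of these data known, so its place among the lists is not a finding. Nr1d2 encodes REV-ERB beta, which brings NCoR and Hdac3 to chromatin. Its level was 2.75, 2.79 and 2.44 in control samples and 4.57, 4.62, 3.86 and 4.04 in STL samples. All 4 STL samples lay above every control, with a difference of 1.61 (SE 0.20), or 3.06-fold, and a limma adjusted p of 0.0975. Nr1d1, or REV-ERB alpha, read -0.43, -0.31 and -1.17 in control samples and 1.09, 1.51, 0.60 and 0.56 in STL samples. Its groups were likewise apart, with a difference of 1.58 (SE 0.28, interval 0.94 to 2.22) and a limma adjusted p of 0.158. Plin2, a lipid droplet coat protein, had a difference of -0.87 (limma adjusted p = 0.105). Nr1d1 and Nr1d2 are strongly rhythmic in liver, and no source used here gives the hour at which each liver was taken.

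Of the 13 substrates and aggresome partners of Hdac6, 5 were above 0, with a median of -0.03. Hsp90aa1 had a difference of 0.52 (limma adjusted p = 0.177), and Tuba1b, an alpha-tubulin, one of -0.83 (adjusted p = 0.178). The Tuba1b level was 4.78, 5.75 and 5.68 in control samples and 4.38, 4.91, 4.45 and 4.54 in STL samples, so controls 3 and 4 set it apart. The mean centred level of 12 cell division markers divided the controls in the same way, at -0.42, 1.01 and 0.94, against -0.57 to -0.25 in STL samples; its part in the Tuba1b value was not tested.

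Of 11 polyamine enzymes listed beside Hdac10, 7 were above 0 with a median of 0.25. Amd1, which makes the aminopropyl donor of polyamine synthesis, had a difference of 0.61 (limma adjusted p = 0.172). Azin1, the antizyme inhibitor, had a difference of 0.55 (adjusted p = 0.202). The 4 lower genes were Odc1 (-0.49, limma adjusted p = 0.226), Sms (-0.47, limma adjusted p = 0.29), Sat1 (-0.25) and Srm (-0.12). Among 11 cohesin genes listed with the Hdac8 substrate Smc3, 5 were above 0 with a median of -0.07; Smc3 itself had a difference of -0.17. Stag1 had a difference of 0.32 (limma adjusted p = 0.203), and Esco2, the acetyltransferase that opposes Hdac8, one of -1.45 (adjusted p = 0.205), with only 2 of 4 STL arrays well above background. With normexp background correction the Esco2 difference was -0.41. The Esco2 level was -4.2, -2.39 and -2.67 in control samples and -4.67, -4.84, -5.11 and -3.54 in STL samples. The groups overlapped, and controls 3 and 4 set the difference, as for Tuba1b. The part of the cell division markers in the Esco2 value was not tested.

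Genes that butyrate is known to induce in cultured cells were the last list, with 8 of 13 above 0 and a median of 0.16. Cdkn1a, the p21 cell cycle inhibitor, read 1.72, 1.61 and 1.86 in control samples and 1.09, 0.52, 1.86 and 1.31 in STL samples. STL 7 was level with the highest control and the others lay below all controls, with a difference of -0.54 (interval -1.15 to 0.07; limma adjusted p = 0.304). The Cdkn1a difference was -0.31 without STL 6 and -0.92 with the mean of its probes, and its other probe gave -1.30. That other probe was well above background on 4 control arrays but only 1 STL array. Gadd45a had a difference of 0.49 (limma adjusted p = 0.208), and Cdkn2b one of -0.42 (adjusted p = 0.193). The other Cdkn2b probes gave 0.24 and -0.23 and the mean of its probes -0.13. Those other probes were dim, well above background on 2 control and 3 STL arrays and on 1 control and 1 STL array. The differences of H1f0, a linker histone, and Gsn, gelsolin, were -0.02 and 0.05. Differences over the 13 genes ran from -1.04 to 0.75, so H1f0 and Gsn do not stand for the list.

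**Figure D3:**
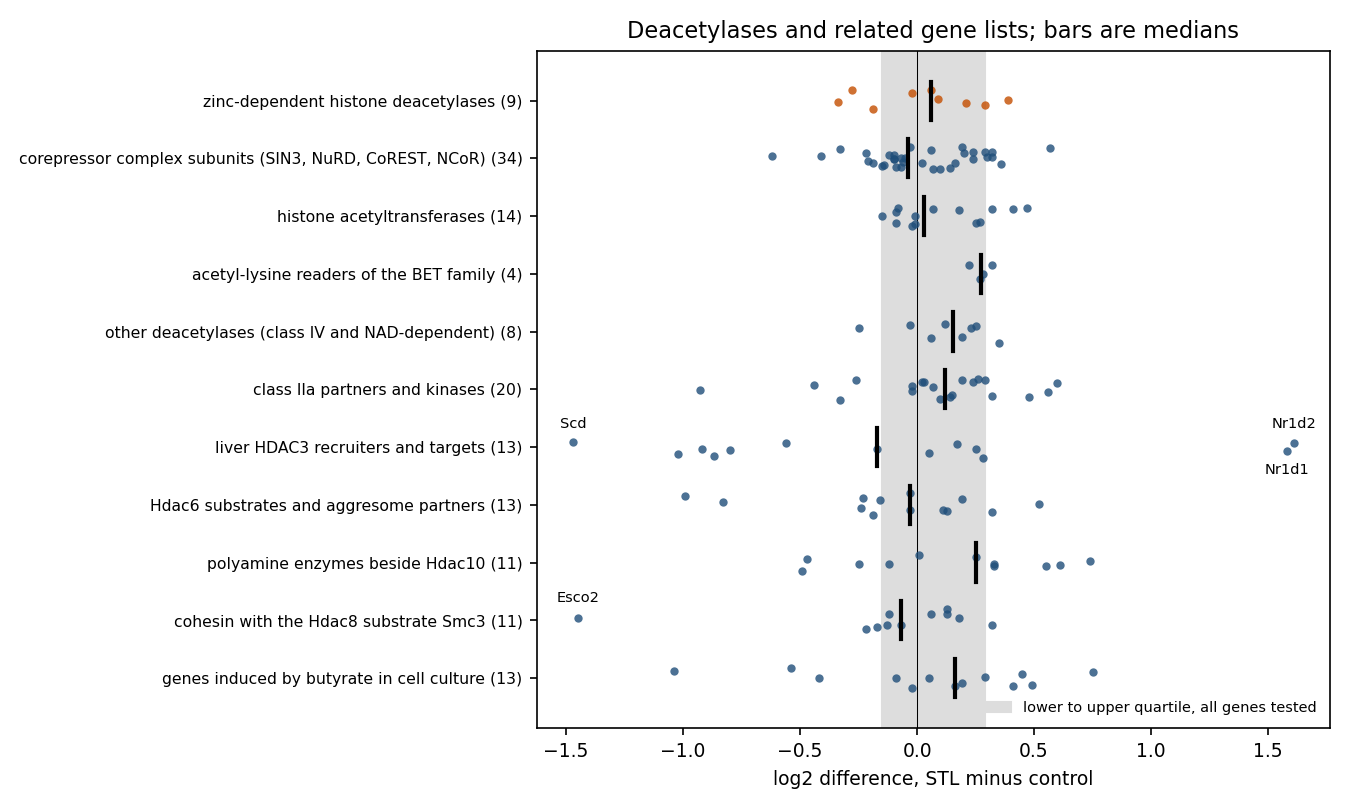
Difference between STL and control livers for each tested gene of the histone deacetylases and of the related lists, on the log2 scale, with a bar at the median of each list and a grey band from the lower to the upper quartile of all genes (-0.15 to 0.29). The deacetylases lie between -0.34 and 0.39, while Nr1d1 (1.58), Nr1d2 (1.61), Scd (-1.47) and Esco2 (-1.45, or -0.41 with normexp) lie farthest from 0.

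Markers of other liver cells also differed between samples, as measured by the mean of centred levels over each list. The 10 hepatocyte markers ran from -0.69 to 0.20 in control samples and from 0.08 to 0.36 in STL samples, and the 10 stellate cell markers from -0.01 to 0.57 and from -0.33 to -0.04. With 7 of 8 cholangiocyte markers tested, the ranges were 0.12 to 1.42 and -1.16 to 0.23. Granulocyte and mast cell markers, 7 of 10 tested, ran from 0.35 to 0.83 and from -0.91 to -0.11. The endothelial and macrophage lists, all 10 genes of each, overlapped at -0.05 to 0.07 against -0.22 to 0.08 and at 0.03 to 0.10 against -0.22 to 0.28. Lymphocyte markers, 8 of 12 tested with Cd3e, Cd2, Cd79a and Ncr1 not well above background on any array, ran from -0.37 to 0.06 and from 0.03 to 0.21. Their part in the members' values was not tested.

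The members' promoters were read for a shared feature, since housekeeping promoters are often rich in GC. In RefSeq's GRCr8 windows of 300 bases (250 before and 50 after the start), found for all 10 members, the letters GGGCGG were present on either strand in 7 of 10, against 33.1% of 33469 promoters. The windows of Hdac7, Hdac8 and Hdac9 did not hold them. GC content ran from 37.0% for Hdac9 and 41.3% for Hdac8 to 72.7% for Hdac7, beside a median of 51.7% over all promoters. Of the tested members that hold them, Hdac1, Hdac3, Hdac6 and Hdac10 were higher on average in STL livers, and Hdac4 and Hdac5 lower. Of those without them, Hdac9 was higher and Hdac7 and Hdac8 lower. A link between the letters and the direction was not tested.

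**Figure D4:**
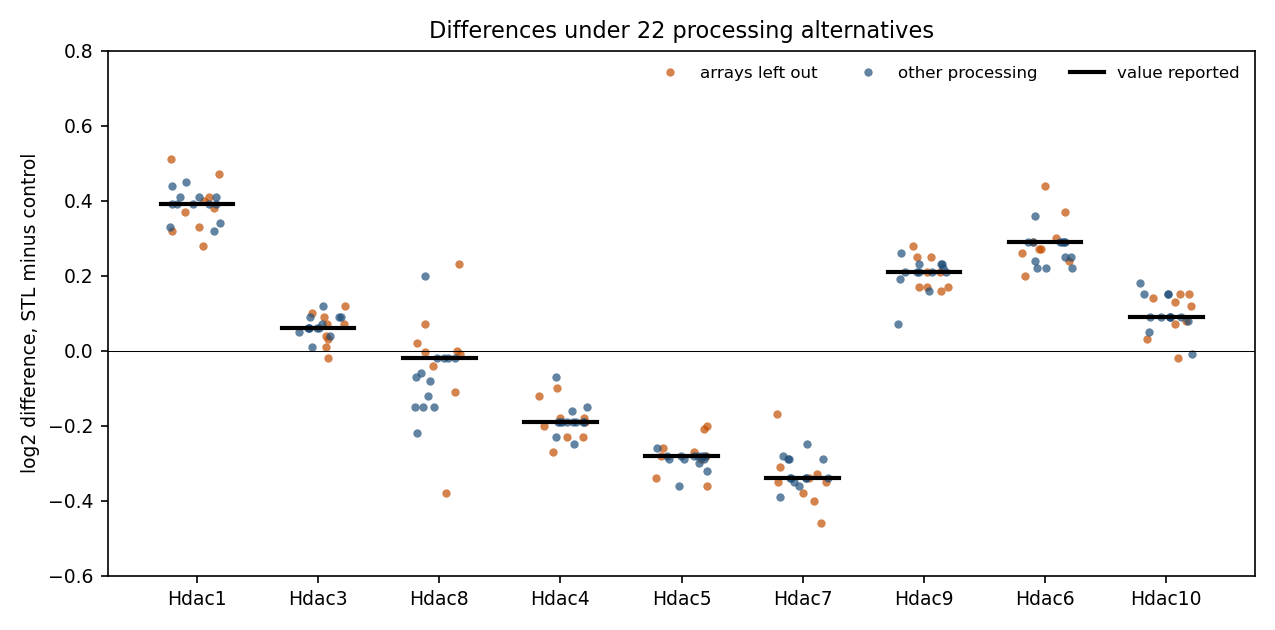
Difference between STL and control livers for each tested histone deacetylase, on the log2 scale, under the processing used here (black bars) and under the 22 alternatives (orange points with arrays left out, blue points for other processing). Hdac1 stays between 0.28 and 0.51 and Hdac7 between -0.46 and -0.17, while Hdac3, Hdac8 and Hdac10 cross 0.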

How the data were processed

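Cy3-labelled RNA of each liver was measured on 1 Agilent 1-colour rat array. Signal intensity files were deposited as scanned, with Feature Extraction 11.5.1.1 and probe positions on rn4 per the file headers; the submitters' processing notes name version 10.7. The processed signal intensity is background-subtracted within each array, and the deposited value table holds the same intensities scaled so that each column's 75th percentile is near 1000 (column medians 42.1 to 48.9). The scaling step is stated in no source used here, and 6 of its 8 columns hold another array of the same group.

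Spots of a probe were averaged, the log2 signal was taken relative to the array's 75th percentile, and control 1 and 2 were averaged. Of 62976 spots, 58717 were not controls, and none was saturated. The brightest probe stood for a gene, and a gene was tested if that probe was well above background (at least 0.5 of its spots flagged so) on 4 or more of 8 arrays. Probes were named through RefSeq accession (21109), symbol (6684), synonym (424), bracketed description (1858) or else by the file's name (15523). STL was set against control in R 4.3.3 by limma 3.58.1 (lmFit, eBayes with an intensity trend, two-sided, Benjamini-Hochberg), and the fit was tested on simulated data. The p-values of list genes are adjusted over all 21446 genes. The 7 samples limit the precision. Every member was named with each tested probe, and a list by up to 4 genes past the threshold, or else the 2 with the smallest p; Hdac11, Nr1d1, Nr1d2, Ncor1 and Cdkn1a were always named, and some genes that the rule gives are not reported here. H1f0, Gsn, Smc3, Scd, Odc1, Sms, Sat1 and Srm were named after their values were seen. Members and lists were chosen with earlier results of these data known, so the lists are no independent support. Alternatives covered scaling, background correction, dim-probe filter, probe choice, slide position, array weights, the authors' table and each array left out; testing every probe singly was chosen after seeing the data. The slide position was used as a block because the arrays shared a slide.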

Additional observations from a re-analysis of the deposited data

Results flagged for a closer look

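Within the 4 STL samples, 39 sets of values were examined for a sample far from the others, and 3 had a gap divided by range above 0.829, Dixon's 95% critical value. Chance gives about 1 set in 20, so this number is near what chance gives. For Hdac6, STL 5 (0.34) lay below the other STL samples (0.64 to 0.68), with a ratio of 0.882. For the TG-repeat probe of Hdac8, STL 7 (2.59) lay above the others (2.20 to 2.26), with a ratio of 0.846. For Gadd45a, STL 6 (2.23) lay above the others (1.66 to 1.75), with a ratio of 0.842.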

How the results depend on the processing

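No deacetylase passed an adjusted p of 0.05 under any of the 22 alternatives; the lowest was 0.0533, for Hdac1 with limma's array weights. Hdac1 (0.28 to 0.51), Hdac4, Hdac5, Hdac6, Hdac7 and Hdac9 kept their direction in all 22. For members with a single probe, the alternatives of probe filter and probe choice could not change the difference. The sign turned for Hdac8 to 0.20 with the mean of its probes, 0.07 without control 3, 0.02 without STL 5 and 0.23 without controls 1 and 2 (-0.38 to 0.07 with 1 array left out); for Hdac10 to -0.01 with array weights and -0.02 without controls 1 and 2; and for Hdac3 to -0.02 without controls 1 and 2. The count of all genes past the threshold, 1 as reported, was 21 with all 8 arrays as samples, 2 with slide row as a block, 1641 with array weights, 89 with the authors' table and 212 without controls 1 and 2; leaving out 1 array at a time gave 1 to 45, with 45 without STL 6 and 3 without control 3. The cause was not tested. Calls at an unadjusted p under 0.05 had the higher level in STL in 61.1% of cases as reported. The share was 45.6% with median scaling, 52.5% with quantile normalization and 75.6% with normexp. Hdac1 and Hdac7 kept their signs under each. The unadjusted p of Hdac1 by limma was 0.0921 with median scaling, 0.073 with quantile normalization and 0.0566 with normexp. That of Hdac7 was 0.0374, 0.06 and 0.0348 in the same order. Nr1d2, below the threshold as reported, passed it under 5 of 22 alternatives (adjusted p 0.0134 to 0.23), Plin2 under 4, Nr1d1 and Tuba1b under 2 each, and Sin3b, Crebbp, Ywhaz, Hsp90aa1, Amd1, Azin1 and Gadd45a under 1 each. Each slide column held 1 control and 1 STL array. With column as a block, which pairs them by position, Hdac1 was 0.41 (unadjusted p = 0.0252, limma) and Hdac7 -0.29 (unadjusted p = 0.102, limma). That fit counted control 1 and control 2 as separate samples, as did those with slide row as a block and with the authors' table. The labels give the control and STL rats no shared replicate numbers, so no pairing by animal was fitted. A probe not well above background, as for Hdac2, gives only a bound.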
